A study of Danio rerio with 8 samples.

Results

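The axon guidance genes described here are semaphorins, netrins, slits and ephrins, with receptors of these families. The receptors are plexins and neuropilins for semaphorins, UNC5 and DCC for netrin-1, robos for slits, and EphA and EphB for ephrins. All these genes were chosen by symbol, and a gene was kept when it had 10 or more counts in at least 3 libraries. Of 102 genes with such a symbol, 89 were kept, out of 19331 genes that met the same minimum and 32520 genes in the count table. The 89 genes were 12 class 3 semaphorins, 15 semaphorins of classes 4 to 7, 4 neuropilins, 13 plexins, 7 netrins, 4 UNC5 receptors, 4 slits, 4 robos, 7 ephrin-A genes, 5 ephrin-B genes, 8 EphA receptors and 6 EphB receptors. DCC did not reach the minimum.

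These ligands and receptors steer growing axons by attraction or repulsion at the growth cone. They also act outside the nervous system, where Eph receptors and ephrins signal at contacts between neighboring cells, and class 3 semaphorins and neuropilins act on blood vessels. The cornea is densely supplied by sensory axons of the trigeminal ganglion, whose endings run between the epithelial cells. In mammals the corneal epithelium itself carries Eph receptors, EphA2 among them.

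The corneas came from adult zebrafish of the wild type AB background. In wounded fish both corneas were abraded with an ophthalmic burr, which was used to remove the central epithelium. Controls went through the anesthesia and the handling without abrasion. All corneas were collected after 1.5 h of recovery, in 4 control and 4 wounded libraries of polyadenylated RNA, each pooled from 6 corneas of 3 fish. Libraries of the same number came from 1 tank, with fish of 180 days in tank 1, 145 days in tank 2, 148 days in tank 3 and 183 days in tank 4. The authors left wounded library 1 out on the basis of a principal component analysis. The comparison here therefore sets control libraries 1 to 4 against wounded libraries 2 to 4, and wounded library 1 is given apart. Its summed corneal epithelial markers were at 61882 CPM, against 90963 to 93591 in wounded libraries 2 to 4 and 97649 to 102914 in control libraries. That sum rests mostly on the keratins krt5 and krt91, and the markers of library 1 went both ways. In it krt5, at 22600 CPM, and krt4, at 6489 CPM, were below all other libraries. By contrast, epcam, at 3845 CPM, and cdh1, at 1514 CPM, were above all controls. CPM are normalized counts, scaled to a common library size with TMM factors. The libraries held 39472162 to 44250662 counts, of which the 89 genes took 0.144 to 0.183%. Values are compared within a gene and not between genes, because transcript lengths were not used.

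A single axon guidance gene changed at the adjusted p of 0.05 in wounded corneas, and it fell. This was epha2b, which encodes a copy of the receptor tyrosine kinase EphA2. None of the 89 genes rose, with a background of 0.734% of all 18935 genes tested that were called higher (edgeR quasi-likelihood test, Benjamini-Hochberg over all genes). The background for lower genes was 0.634%. At an unadjusted p under 0.05, 21 of the 89 genes (23.6%) had higher values, beside 9.13% of all genes, and 4 (4.49%) had lower values, beside 9.38% of all genes.

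Below that threshold the fold changes of the set lay mostly above 0. The log2 fold change was above 0 for 70 of the 89 genes (78.7%), beside 51.1% of all genes tested. Its median was 0.31, with quartiles of 0.10 and 0.57, beside a median of 0.012 and quartiles of -0.27 and 0.33 over all genes. The 3 wounded libraries lay above all 4 control libraries for 13 genes (14.6%), where the background was 8.16%. They lay below all control libraries for 5 genes (5.62%), where the background was 9.45%. Wounded library 1, which took no part in these counts, was also above all control libraries for 6 of the 13 and below them for 4 of the 5. The matching shares over all genes were not counted, so these 2 values are a description only. Within tanks 2, 3 and 4, the wounded library was the higher one in each tank for 34 genes (38.2%, background 23.2%) and the lower one in each tank for 10 genes (11.2%, background 22.6%). A fold of 2 was reached by 6 genes in the upward and 1 in the downward direction, again without a count over all genes. A different RNA level can come from more or fewer cells of a type or from more or less RNA per cell. These cannot be told apart in whole corneas, from which the abrasion removed central epithelium.

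**Figure D1:**
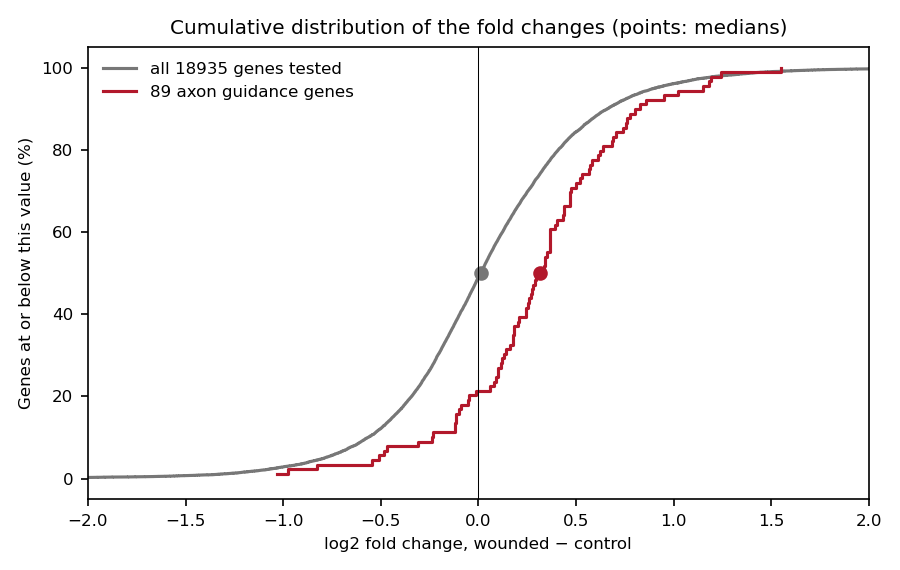
Cumulative share of genes (%, vertical axis) against the log2 fold change of wounded over control corneas (horizontal axis), for the 89 axon guidance genes in red and all 18935 genes tested in grey, cut at -2 and 2. The red curve lies to the right of the grey one through the middle of the range, with medians (points) of 0.31 and 0.012.

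The control and wounded fish of a number shared a tank, and a fit that took the tank as a block made more calls. As wounded library 1 was left out, tank 1 held control library 1 alone. This fit therefore compared wounded with control corneas within tanks 2 to 4 only, and control library 1 did not bear on its fold changes. For epha2b the log2 fold change was -1.10 with the block and also -1.10 without control library 1. With the block, sema4e, nrp2a and robo3 were called higher, 3 of 89 genes (3.37%) where the background was 2.71%. Called lower were epha2b and the EFNB2 copy ENSDARG00000020164, 2 of 89 (2.25%) where the background was 2.51%. DESeq2 gave an adjusted p to 73 of the 89 genes. It called 7 of them higher, namely epha3, ephb6, efna2a, ntn1a, nrp2a, robo3 and sema4e, which is 9.59% beside 4.3% of all genes. It called epha2b alone lower, which is 1.37% beside 5% of all genes. In both of these fits, sema4e, nrp2a and robo3 were called higher and epha2b lower. With all 8 libraries and the block, sema4e, nrp2a and ephb6 were called higher, 3 of 88 genes where the background was 2.45%, and epha2b lower, where the background was 1.88%. With all 8 libraries and no block epha2b alone was called, with backgrounds of 0.79% for higher and 0.468% for lower genes.

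**Figure D2:**
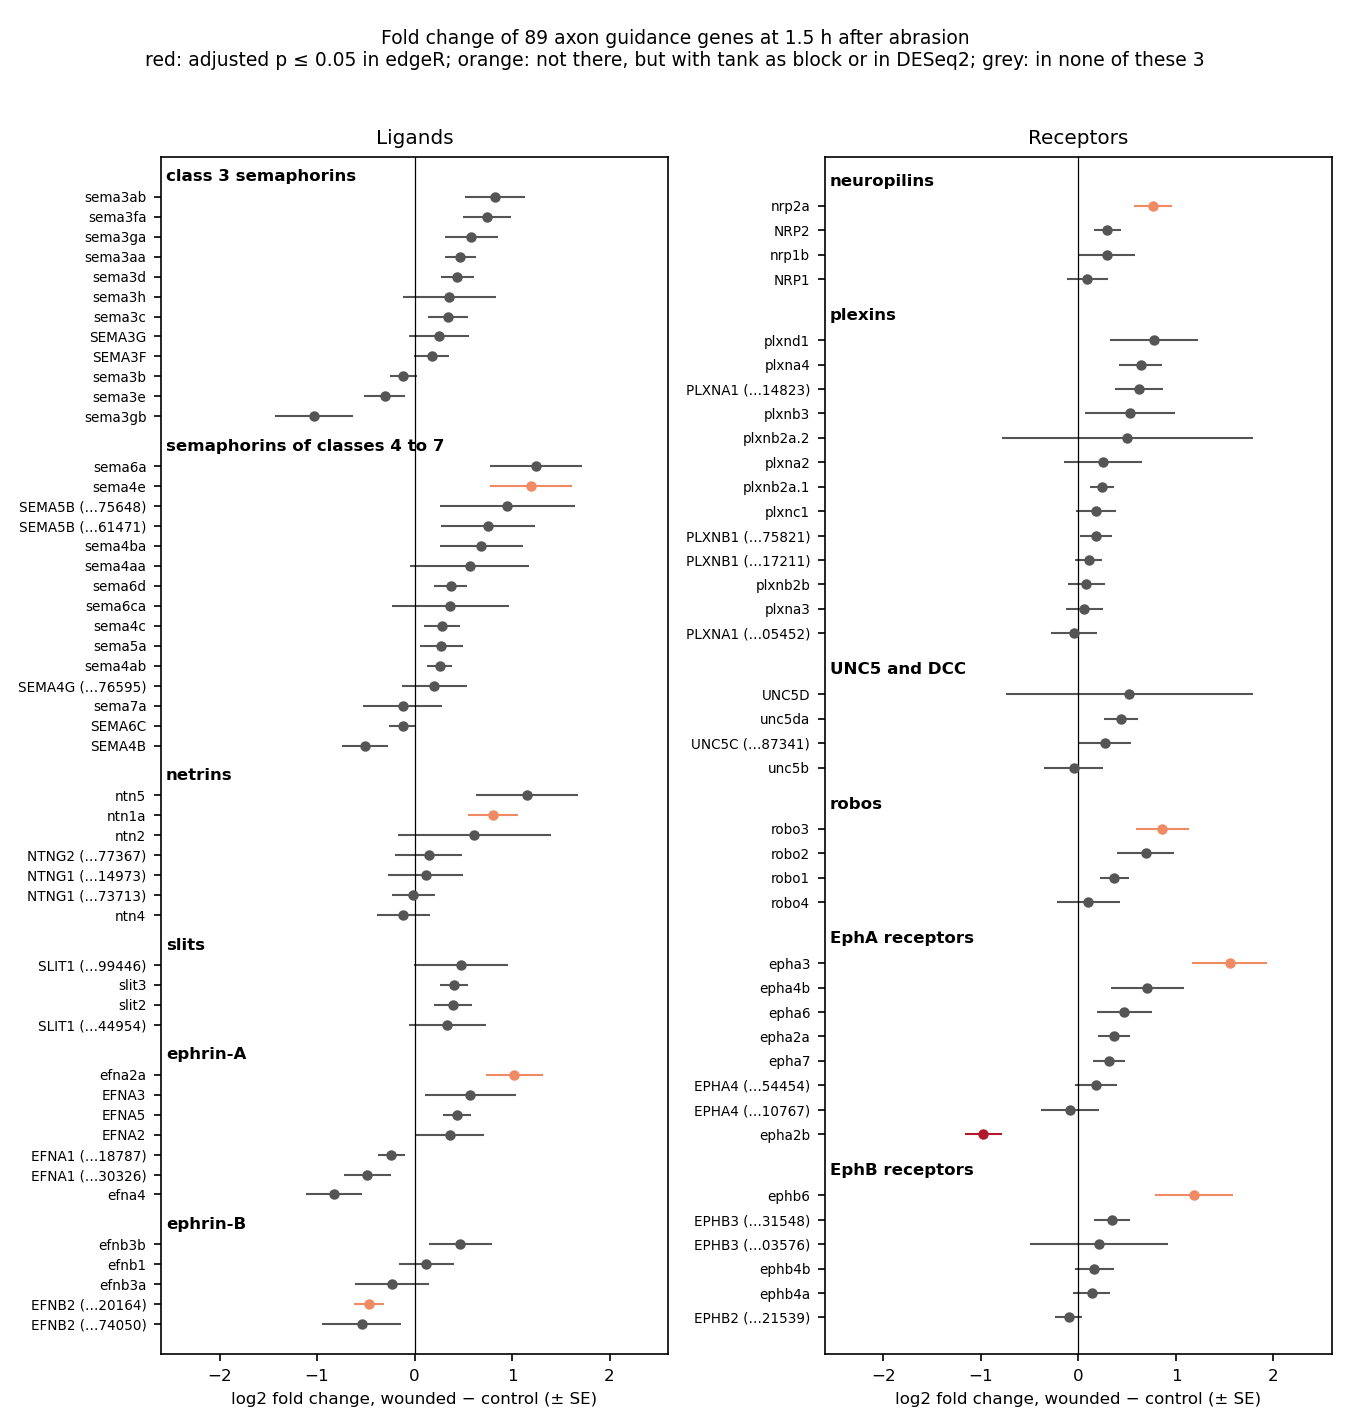
Log2 fold change of wounded over control corneas with its SE (horizontal axis) for each of the 89 genes, ligands on the left and receptors on the right, grouped by family, with the last 5 digits of the identifier where copies share a symbol. The single red point is epha2b at -0.97, and the orange points are the 8 other genes called with the tank as a block or in DESeq2.

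Among the Eph receptors, which bind ephrins on neighboring cells, the copies of EphA2 stood apart from each other. The level of epha2b (ENSDARG00000022727) was 28.2, 49.0, 39.1 and 39.7 CPM in control libraries 1 to 4. It was 19.97, 22.2 and 17.4 CPM in wounded libraries 2 to 4 and 20.9 CPM in wounded library 1. Every wounded library, library 1 included, was below every control library. The mean went from 39.01 ± 8.49 CPM (SD, n = 4) to 19.9 ± 2.38 CPM (SD, n = 3), and the log2 fold change was -0.97 with an SE of 0.19 and a 95% interval from -1.39 to -0.56 (edgeR, adjusted p = 0.0397). The adjusted p was 0.00531 with the tank as a block, 1.7e-04 in DESeq2 and 0.0264 with all 8 libraries in edgeR. Within a tank the log2 difference was -1.29, -0.82 and -1.18 for tanks 2, 3 and 4, and -0.44 for tank 1. In edgeR the call was lost without control library 3 (adjusted p = 0.122), control library 4 (adjusted p = 0.0597), wounded library 2 (adjusted p = 0.083), wounded library 3 (adjusted p = 0.140) or wounded library 4 (adjusted p = 0.122), while the log2 fold change stayed between -1.10 and -0.85. The summed corneal epithelial markers did not overlap between the groups either and were lower in wounded corneas, by less than the fold of epha2b. That sum rests mostly on krt5 and krt91, and not all markers went that way. In control libraries krt5 was at 41129 to 42553 CPM and epcam at 2983 to 3413 CPM. In wounded libraries 2 to 4 krt5 was at 37045 to 40793 CPM and epcam at 3756 to 3904 CPM. The part of these markers in the result was not tested.

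The other copy, epha2a (ENSDARG00000017354), was at 184, 258, 231 and 270 CPM in control libraries and at 317, 348 and 245 CPM in wounded libraries 2 to 4. Wounded library 1 was at 208 CPM. The groups overlapped, and the log2 fold change was 0.37 (SE 0.16, edgeR adjusted p = 0.265). Of the normalized counts of both copies, epha2b made up 12.8 to 16.0% in control libraries, 5.92 to 6.64% in wounded libraries 2 to 4 and 9.10% in wounded library 1. These shares do not overlap between the groups. Transcript lengths were not used, so these percentages are not shares of transcripts. They are compared between libraries only, where gene length enters equally. Since epha2b was picked for its fall in the same data, they are given as a description. In a zebrafish annotation of RefSeq the 2 copies lie on different chromosomes.

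Of all 8 EphA genes, 6 had log2 fold changes above 0. The receptor gene epha3 had the highest log2 fold change of all 89 genes, at 1.55 (SE 0.38, edgeR adjusted p = 0.0728, DESeq2 adjusted p = 0.00207). Its level was 1.83, 4.07, 2.61 and 2.66 CPM in control libraries and 3.97, 7.29 and 13.3 CPM in wounded libraries 2 to 4, with 5.16 CPM in wounded library 1. Control library 2 and wounded library 2, from the same tank, were at nearly the same level, and the other wounded libraries were above all controls. Without wounded library 4, the highest one, the log2 fold change of epha3 was 1.01 with an edgeR adjusted p of 0.234. Without wounded library 2 it was 1.88 with an edgeR adjusted p of 0.0423, and the other omissions of a library left the adjusted p between 0.052 and 0.185. Of the EphB genes, 5 of 6 log2 fold changes were above 0. The level of ephb6, which encodes a receptor without kinase activity in mammals, was 3.46, 8.60, 3.03 and 2.205 CPM in control and 9.33, 12.01 and 8.13 CPM in wounded libraries 2 to 4, with 8.43 CPM in wounded library 1. Control library 2 lay within the wounded range and the other controls below it. The log2 fold change of ephb6 was 1.18 (SE 0.40, edgeR adjusted p = 0.1504, DESeq2 adjusted p = 0.0277), and without control library 2 it was 1.76 with an edgeR adjusted p of 0.0174. The other 6 omissions of a library made no call in edgeR, with values from 0.97 to 1.30 and adjusted p from 0.221 to 0.361. The EphB gene with the most normalized counts in control corneas, ephb4a, had 25.9 ± 6.70 CPM (SD, n = 4) in control and 28.5 ± 3.26 CPM (SD, n = 3) in wounded corneas. Its log2 fold change was 0.13, and it was -0.046 when wounded library 1 was included.

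**Figure D3:**
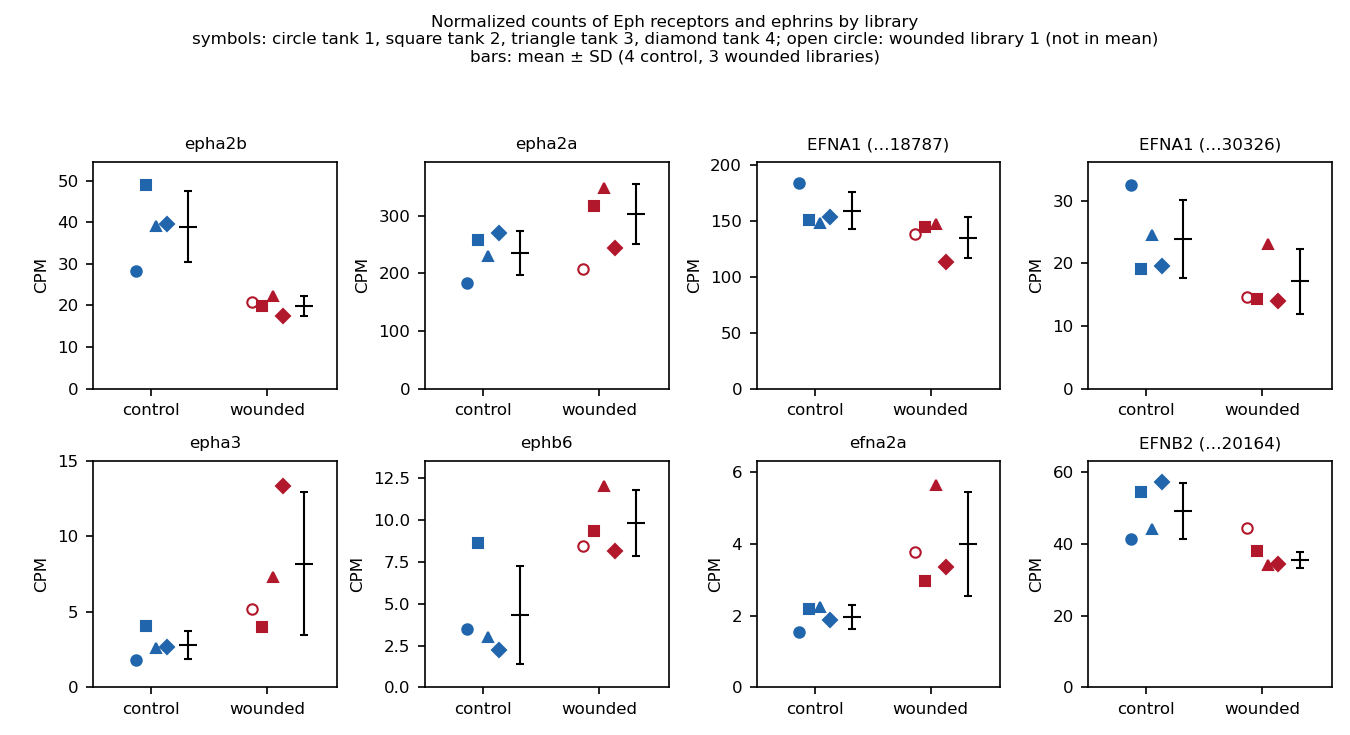
Normalized counts (CPM, vertical axes from 0) of 4 Eph receptors and 4 ephrins in each control (blue) and wounded (red) library, with 1 symbol per tank, wounded library 1 as an open circle, and mean ± SD bars over the 4 control and 3 wounded libraries. All wounded libraries of epha2b, at 17.4 to 22.2 CPM, lie below the lowest control library at 28.2 CPM, whereas those of epha2a overlap the controls.

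Of the 12 ephrin genes, 6 had log2 fold changes above 0, near the 51.1% of all genes. Ephrin-A proteins are anchored to the membrane by a lipid, while ephrin-B proteins span it and can themselves signal into their cell. The copies of EFNA1, which encodes the ephrin-A1 that binds EphA2 in mammals, both had negative log2 fold changes, and neither passed the test. The copy ENSDARG00000018787 was at 184, 151, 148 and 153 CPM in control libraries and at 144, 147 and 114 CPM in wounded libraries 2 to 4, with 138 CPM in wounded library 1. All wounded libraries were below all controls, by a narrow margin for library 3, and the log2 fold change was -0.24 (SE 0.14, edgeR adjusted p = 0.390). The copy ENSDARG00000030326 had a log2 fold change of -0.48 (SE 0.24, edgeR adjusted p = 0.316), with overlapping groups. Another ephrin-A gene, efna4, was at 4.10 ± 1.12 CPM (SD, n = 4) in control and 2.31 ± 0.613 CPM (SD, n = 3) in wounded corneas without overlap between the groups. Its log2 fold change was -0.83 (edgeR adjusted p = 0.162).

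With values in the other direction, efna2a was at 1.53, 2.18, 2.24 and 1.88 CPM in control libraries and at 2.98, 5.65 and 3.35 CPM in wounded libraries 2 to 4, with 3.79 CPM in wounded library 1. The wounded libraries were all above the controls. For efna2a the log2 fold change was 1.02 (SE 0.29, edgeR adjusted p = 0.0980, DESeq2 adjusted p = 0.0281). EFNA5, whose protein ephrin-A5 binds EphA3 in mammals, was at 18.5 to 22.9 CPM in control and 26.3 to 30.5 CPM in wounded libraries 2 to 4, with 24.9 CPM in wounded library 1, again without overlap. This was a log2 fold change of 0.43 (SE 0.14, edgeR adjusted p = 0.136).

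Ephrin-B was the family with a median log2 fold change below 0, at -0.23 over 5 genes. Both copies of EFNB2, which encodes a ligand of EphB receptors, had negative values. The copy ENSDARG00000020164 was at 41.3, 54.4, 44.1 and 57.4 CPM in control libraries and at 38.2, 34.3 and 34.5 CPM in wounded libraries 2 to 4. Those wounded libraries were below all controls, but wounded library 1 lay among them at 44.3 CPM. This copy had a log2 fold change of -0.47 (SE 0.15, edgeR adjusted p = 0.135), and -0.54 with the tank as a block (edgeR adjusted p = 0.0435). It was -0.38 with all 8 libraries (edgeR adjusted p = 0.232).

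Class 3 semaphorins are secreted, and most of them signal through neuropilins with A-type plexins. Of their 12 genes, 9 had log2 fold changes above 0, beside 78.7% of the 89 genes and 51.1% of all genes. None of the 12 passed the test. The level of sema3aa, a copy of the repellent semaphorin 3A gene, was 31.6, 41.7, 36.8 and 42.3 CPM in control and 43.2, 57.3 and 58.0 CPM in wounded libraries 2 to 4, with 50.6 CPM in wounded library 1. The groups did not overlap, although control libraries 2 and 4 came close to wounded library 2, and the log2 fold change was 0.47 (SE 0.16, edgeR adjusted p = 0.147). Similarly, sema3fa was at 6.59, 7.46, 5.15 and 3.72 CPM in control and 8.07, 9.58 and 11.1 CPM in wounded libraries 2 to 4, with 8.71 CPM in wounded library 1. All wounded libraries were above all controls, at a log2 fold change of 0.74 (SE 0.24, edgeR adjusted p = 0.143). The copy named SEMA3F (ENSDARG00000055373), the class 3 gene with the most normalized counts in control corneas, had overlapping groups at 60.1 ± 12.2 CPM (SD, n = 4) in control and 67.9 ± 9.47 CPM (SD, n = 3) in wounded corneas.

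The semaphorin 3G copies differed in direction. The level of sema3gb was 1.38, 1.50, 1.48 and 2.57 CPM in control and 1.21, 0.58 and 0.7502 CPM in wounded libraries 2 to 4, with 0.734 CPM in wounded library 1. All wounded libraries were below all controls, at a log2 fold change of -1.03 (SE 0.40, edgeR adjusted p = 0.200). The log2 fold changes of sema3ga and of the copy named SEMA3G were 0.58 and 0.25, with overlapping groups, and without control library 2 that of sema3ga was 0.89 (edgeR adjusted p = 0.0467).

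Semaphorins of classes 4 to 6 are bound to the membrane and act through plexins directly, and semaphorin 7A is anchored by a lipid. Of the 15 genes of these classes, 12 had log2 fold changes above 0. The level of sema4e was 3.85, 10.2, 2.64 and 3.90 CPM in control and 15.0, 7.29 and 13.0 CPM in wounded libraries 2 to 4, with 17.8 CPM in wounded library 1. The wounded library was the higher one in every tank, by 0.56, 1.43, 1.71 and 2.18 on the log2 scale in tanks 2, 3, 4 and 1, but control library 2 lay within the wounded range. For sema4e the log2 fold change was 1.19 (SE 0.42, edgeR adjusted p = 0.165), and 1.24 with the tank as a block (edgeR adjusted p = 0.0252). Without control library 2 it was 1.76 (edgeR adjusted p = 0.0252), and the other 6 omissions of a library made no call, with values from 0.97 to 1.45 and edgeR adjusted p from 0.213 to 0.334. The level of sema6a was low, at 0.222 to 0.978 CPM in control and 1.31 to 1.64 CPM in wounded libraries 2 to 4, and the log2 fold change was 1.24 (SE 0.47, edgeR adjusted p = 0.194). In wounded library 1 it was at 0.0473 CPM, which is under the 0.071 CPM that 3 counts make in that library. The gene sema6d, with the most normalized counts of these classes, had a log2 fold change of 0.37 with overlapping groups.

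All 4 neuropilin genes and 12 of 13 plexin genes had log2 fold changes above 0. Neuropilin-2 is the co-receptor of semaphorin 3F, and of a vascular growth factor in lymphatic vessels. The level of nrp2a was 10.4, 10.9, 8.29 and 6.77 CPM in control and 14.4, 16.9 and 15.1 CPM in wounded libraries 2 to 4, with 14.2 CPM in wounded library 1. All wounded libraries, library 1 included, were above all controls. The mean went from 9.08 ± 1.91 CPM (SD, n = 4) to 15.4 ± 1.30 CPM (SD, n = 3), and the log2 fold change was 0.76 with a 95% interval from 0.34 to 1.19 (edgeR adjusted p = 0.0736). The edgeR adjusted p was 0.0333 with the tank as a block and 0.0451 with all 8 libraries and the block, and that of DESeq2 was 0.00971. The other copy, named NRP2 (ENSDARG00000038446), was at 37.5 to 50.2 CPM in control and 51.8 to 57.6 CPM in wounded libraries 2 to 4, with 45.9 CPM in wounded library 1, which lay among the controls. For this copy the log2 fold change was 0.29 (edgeR adjusted p = 0.287).

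Among the plexins, plxna4, whose protein carries the semaphorin 3A signal in sensory axons of mammals, had a log2 fold change of 0.64 (SE 0.22, edgeR adjusted p = 0.157) and was chosen after its values had been seen. It was at 21.1 to 37.6 CPM in control and 33.5 to 51.1 CPM in wounded libraries 2 to 4, with 53.9 CPM in wounded library 1, so that wounded library 4 lay within the control range. The plexin gene with the most normalized counts, plxnb2a.1, was at 69.6 to 85.6 CPM in control and 85.2 to 91.5 CPM in wounded libraries 2 to 4. On the log2 scale it differed by 0.24 (edgeR adjusted p = 0.322).

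**Figure D4:**
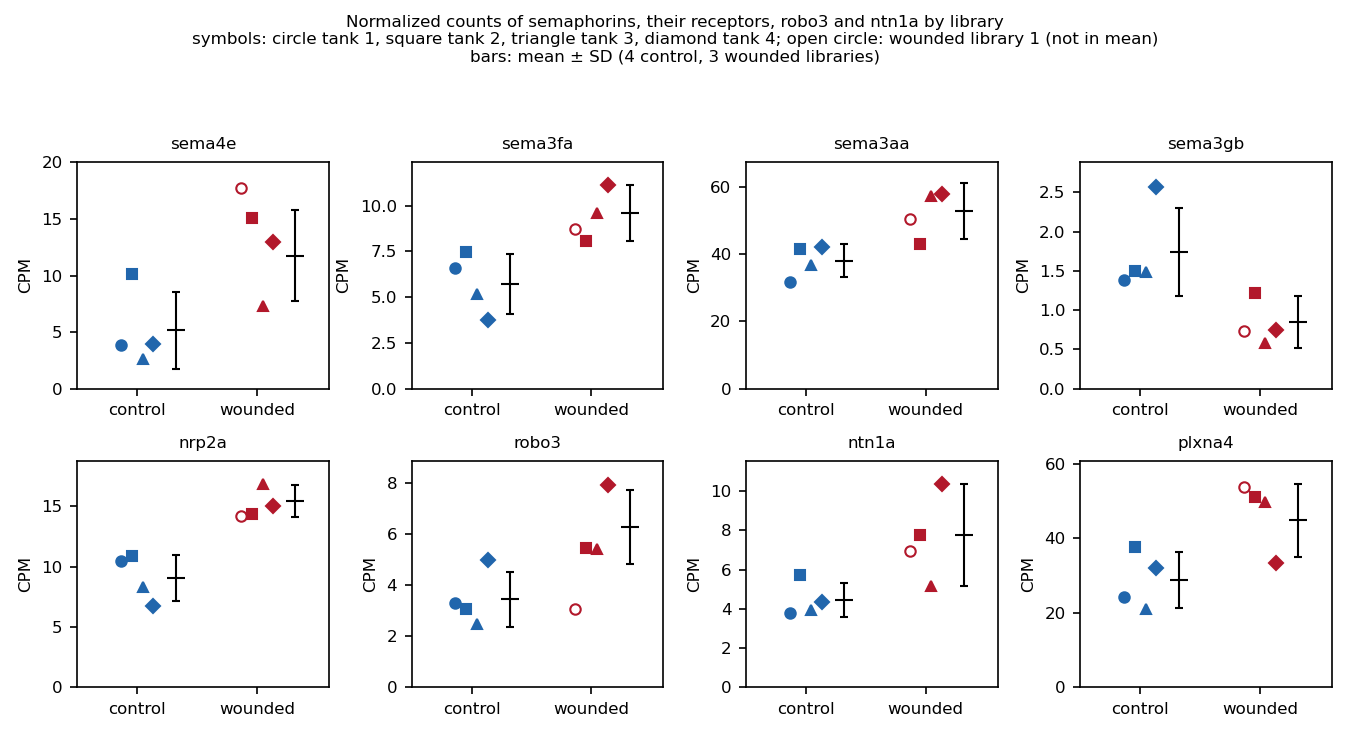
Normalized counts (CPM, vertical axes from 0) of 4 semaphorins, nrp2a, robo3, ntn1a and plxna4 in each control (blue) and wounded (red) library, with 1 symbol per tank, wounded library 1 as an open circle, and mean ± SD bars over the 4 control and 3 wounded libraries. The wounded libraries of nrp2a, at 14.2 to 16.9 CPM, all lie above the highest control at 10.9 CPM, whereas sema3gb shows the opposite order.

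Netrins are relatives of laminin, and netrin-1 is secreted, attracts axons through DCC and repels them through UNC5 receptors. The netrin-1 copy ntn1a was at 3.804, 5.71, 3.95 and 4.34 CPM in control and 7.78, 5.17 and 10.4 CPM in wounded libraries 2 to 4, with 6.94 CPM in wounded library 1. Control library 2 was above wounded library 3, while within every tank the wounded library was the higher one. For ntn1a it was 0.80 on the log2 scale (SE 0.26, edgeR adjusted p = 0.133, DESeq2 adjusted p = 0.0489). The higher mean of ntn5 came with 1 high library, wounded library 4 at 10.7 CPM, since wounded libraries 2 and 3 were at 4.65 and 1.59 CPM and the controls at 1.70 to 4.07 CPM. Its log2 fold change was 1.15 with a 95% interval from -0.0013 to 2.30 (edgeR adjusted p = 0.270). The netrin-G1 copy ENSDARG00000073713, with the most normalized counts of the netrins, had a log2 fold change of -0.014 and a 95% interval from -0.50 to 0.47. Of the UNC5 genes, unc5da was at 8.78 to 11.6 CPM in control and 11.99 to 16.2 CPM in wounded libraries 2 to 4, without overlap, with 0.44 as log2 fold change (adjusted p = 0.217, edgeR). Wounded library 1 was below all controls, at 6.51 CPM.

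Slits are secreted repellents that bind robo receptors, and all 4 slit genes and all 4 robo genes had log2 fold changes above 0, none past the test in edgeR without the block. The level of slit3 was 43.9 to 58.0 CPM in control and 55.8 to 72.9 CPM in wounded libraries 2 to 4, with 41.9 CPM in wounded library 1, and its log2 fold change was 0.40 (SE 0.15, edgeR adjusted p = 0.177). The level of robo3, a receptor of commissural axons in mice, was 3.31, 3.05, 2.47 and 4.96 CPM in control and 5.45, 5.40 and 7.92 CPM in wounded libraries 2 to 4. These did not overlap, but wounded library 1 lay among the controls at 3.05 CPM. The log2 fold change of robo3 was 0.86 (SE 0.27, edgeR adjusted p = 0.126), with an adjusted p of 0.0458 with the tank as a block in edgeR and 0.0461 in DESeq2. With all 8 libraries it was 0.67 (edgeR adjusted p = 0.298). The level of robo1 was 25.3 to 31.1 CPM in control and 30.7 to 40.6 CPM in wounded libraries 2 to 4, with 18.4 CPM in wounded library 1. Its log2 fold change was 0.37 with the 7 libraries (edgeR adjusted p = 0.215) and 0.18 with all 8.

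Zebrafish carry more than 1 copy of many of these genes, and 23 groups of copies had at least 2 members in the set. Copies had log2 fold changes of the same sign in 15 groups, all above 0 in 13 of them and all below 0 for EFNA1 and EFNB2. Since 78.7% of the 89 genes lay above 0, a shared sign is no sign of likeness between copies. The remaining 8 groups had copies on both sides of 0. The spread was narrow for the netrin-G1 copies (-0.014 and 0.11). It was wide for the copies of semaphorin 3G (-1.03 to 0.58) and of EphA2 (-0.97 and 0.37). Counts of near-identical copies are uncertain, because the treatment of reads that map to several places is not given in the sources used here.

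Few of the genes that act with these ligands and receptors passed the test. Of 34 tested effectors of semaphorins and plexins, 1 rose and none fell in edgeR, with a median log2 fold change of 0.31. At an unadjusted p under 0.05 there were 10 higher and 1 lower, beside 9.13% and 9.38% of all genes. DESeq2 gave an adjusted p to 29 of the 34 and called 4 higher and 1 lower, beside 4.3% and 5% of all genes. The same backgrounds apply to the lists that follow, and the median over all genes was 0.012. The gene that rose was rnd1b, which encodes a small GTPase that binds plexins, from 6.30 to 12.1 CPM in control libraries to 46.7 to 108 CPM in wounded libraries 2 to 4 (log2 fold change 3.14, edgeR adjusted p = 0.00305). The copies of ARHGEF12, whose protein is bound by B-type plexins, went to opposite sides. ENSDARG00000030532 had a log2 fold change of -0.60 (adjusted p = 0.0662 in edgeR, 0.0303 with the block and 0.00653 in DESeq2). For arhgef12b it was 0.52 (adjusted p = 0.0881 in edgeR, 0.0720 with the block and 0.0239 in DESeq2). Of 28 co-factors of netrins and slits, none passed in edgeR (median 0.14), with 5 higher and 3 lower at an unadjusted p under 0.05 and 1 lower of 23 in DESeq2. The gene rgma, whose protein binds the netrin receptor neogenin, was at 9.42 to 15.5 CPM in control and 6.92 to 8.70 CPM in wounded libraries 2 to 4, while wounded library 1 lay among the controls at 10.7 CPM. It had a log2 fold change of -0.76 (adjusted p = 0.0859 in edgeR, 0.0409 with the block and 0.0122 in DESeq2). Of 26 co-factors of ephrins and Eph receptors, none passed in edgeR either (median 0.09), with 4 higher and 1 lower at an unadjusted p under 0.05 and 1 higher of 26 in DESeq2. The smallest p of that list was that of sipa1l1, a regulator of the GTPase Rap, with a log2 fold change of 0.79 (adjusted p = 0.0644 in edgeR, DESeq2 adjusted p = 0.0057).

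Markers of other cell types of the eye were read in the same libraries, and their part in the results was not tested. Neuron and axon markers, of which 10 of 17 had enough counts to be tested, summed to 28.5 to 40.3 CPM in control and 38.8 to 44.9 CPM in wounded libraries 2 to 4, and 1 of them was called higher with the block. Peripheral glia markers summed to 242 to 316 CPM and 247 to 304 CPM, with 11 of 11 tested. That sum rests mostly on mbpb and erbb3b, with log2 fold changes of -0.46 and 0.040, and not all markers went that way. None of the glia markers was called in edgeR without the block. With it 2 of 11, foxd3 and egr2b, were called higher (background 2.71%, as for the other lists here). DESeq2 called 2 of 9 higher, foxd3 and plp1a (background 4.3%). At an unadjusted p under 0.05, 3 glia markers were higher and 1, mbpb, lower, beside 9.13% and 9.38% of all genes. The 7 markers of blood vessel endothelium summed to 72.3 to 88.3 CPM in control and 102 to 126 CPM in wounded libraries 2 to 4. They summed to 122 CPM in wounded library 1. These sums did not overlap, and flt1, a vascular growth factor receptor, rose among them (log2 fold change 1.72, edgeR adjusted p = 0.0420). It was the 1 of 7 called higher in edgeR, where the background was 0.734%. At an unadjusted p under 0.05, 4 of the 7 were higher and 0 lower, beside 9.13% and 9.38% of all genes. DESeq2 called 2 of 6 higher, flt1 and egfl7 (background 4.3%). The sums rest mostly on kdrl, fli1 and tie1, which were not called (edgeR adjusted p = 0.174, 0.343 and 0.197). Their log2 fold changes were above 0, while that of cdh5 was -0.10. Erythrocyte markers summed to 28.4 to 58.6 CPM in control and 61.1 to 96.2 CPM in wounded libraries 2 to 4, with 58.1 CPM in wounded library 1, and 3 of 5 tested were called higher with the block. Keratocyte markers summed to 8803 to 13957 CPM and 9356 to 16855 CPM, and leukocyte markers to 567 to 943 CPM and 644 to 844 CPM. Wounded library 1 was below all other libraries for both, at 6307 and 514 CPM. These sums rest mostly on col1a1a and col1a2, and on cd74a, and the markers of library 1 went both ways. In it col1a1a, at 2194 CPM, and cd74a, at 446 CPM, were below all other libraries. The keratocyte marker lum, at 282 CPM, was above all other libraries, and the leukocyte marker ptprc, at 24.1 CPM, was above all controls. Pigment cell markers summed to 26.7 to 62.1 CPM in control and 40.2 to 72.5 CPM in wounded libraries 2 to 4, and muscle markers to 345 to 697 CPM and 422 to 488 CPM, with 1 gene of each list called higher with the block. Of 16 corneal epithelial markers 2 fell, both of them copies of PAX6. Lens markers were near 0, at 0.331 to 1.55 CPM in all 8 libraries. Median log2 fold changes of the tested markers were 0.31 for keratocytes, 0.43 for blood vessel endothelium, 0.26 for glia and 0.25 for leukocytes. They were 0.67 for erythrocytes, 0.16 for pigment cells, 0.023 for neurons and axons, -0.12 for corneal epithelium and -0.37 for muscle. The median was 0.31 for the axon guidance genes and 0.012 for all genes.

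Age was compared between the fish of 180 and 183 days and those of 145 and 148 days, with wounding in the model and the same 7 libraries. Each age group holds 2 tanks, so that age and tank cannot be told apart. Of the 89 genes, 1 was called lower in older fish, where the background was 0.111%, and 0 were called higher, where the background was 0.127%. At an unadjusted p under 0.05 there were 8 genes (8.99%), beside 8.67% of all genes. The gene called was plxnb2a.2 (edgeR adjusted p = 0.0196). It had 92, 102, 78 and 67 raw counts in the 4 libraries of tanks 2 and 3, 0 in control libraries 1 and 4, 5 in wounded library 4, and 75 in wounded library 1. Wounded library 1, from older fish, was thus at the level of the younger fish, and with all 8 libraries the edgeR adjusted p was 0.565. The call was also lost without control library 4 (adjusted p = 0.0677) or without wounded library 2 (adjusted p = 0.0719). In RefSeq plxnb2a.2 lies between plxnb2a.1 and plxnb2a.3. Whether reads that these neighbors share were split among them was not tested. The counts of plxnb2a.3 were 0 to 14 in the 8 libraries. The interaction of wounding with age, tested over all 8 libraries, called none of 88 genes in edgeR (background 0%), and 3 of them (3.41%) had an unadjusted p under 0.05, beside 1.82% of all genes. DESeq2 was not run for the interaction.

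**Figure D5:**
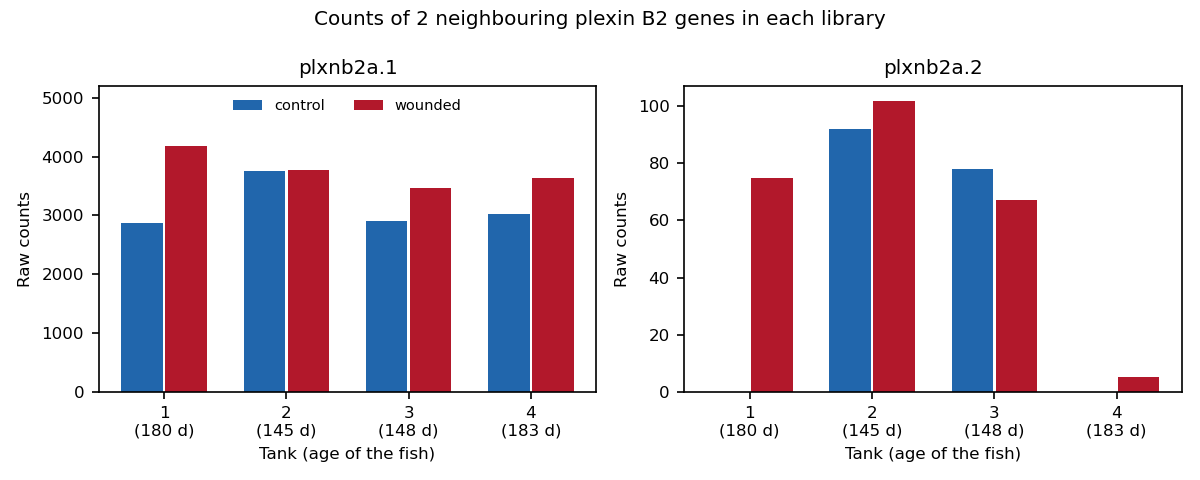
Raw counts (vertical axes from 0, of different scale) of plxnb2a.1 and plxnb2a.2 in the control (blue) and wounded (red) library of each tank, with the age of the fish in days under each tank, where a missing bar is a count of 0. For plxnb2a.2 the libraries of tanks 2 and 3 and wounded library 1 hold 67 to 102 counts, and the other 3 libraries hold 0 to 5.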

How the data were processed

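Corneal RNA of 8 pools of zebrafish was read from 1 end. Base calls were made by the authors with bcl2fastq 2.20.0.422, STAR 2.6.0c was their aligner, GRCz11 their genome, and featureCounts with Ensembl release 97 their counter. The deposited values are raw counts, without normalization, for 32520 genes. The submitters' processing notes name Trimmomatic with no settings. Whether the counting used strand is not given in the sources used here, and overlapping antisense genes can therefore share counts.

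The tools were edgeR 4.0.16, DESeq2 1.42.0 and limma 3.58.1 in R 4.3.3, with Python 3.11.15 and matplotlib 3.10.9 for plots. With 7 libraries, 18935 genes passed filterByExpr. They were normalized by TMM and tested 2-sided by quasi-likelihood in edgeR, and p-values were adjusted by Benjamini-Hochberg across every gene tested. The edgeR fit of the 7 libraries without a block was first tested on simulated counts, and the other steps were not. Replicates are pools of 3 fish, and p-values of the fits without the block measure the spread between pools. Those of the fits with the block measure the spread of the differences between wounded and control pools of a tank.

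The genes and lists were chosen with earlier results of these data known. Symbols came from a reference table and, for 19 genes, from names the authors gave beside normalized counts, matched within 0.01%. Genes that share a symbol with another copy (22) carry their identifier where named. NTNG genes were kept, and 8 other matches (SLITRK genes and UNC50) were left out as other families. Named are genes past the adjusted p of 0.05 in edgeR, edgeR with the tank as a block, or DESeq2, the 10 with the smallest p, those at 1 or beyond on the log2 scale in either direction, the gene with the most normalized counts of each family, and the leading genes of each list. Outside this rule, plxna4, efna4, sema3ga, SEMA3G, plxnb2a.2 and the EFNA1 copy ENSDARG00000030326 were chosen after their values were seen. Alternatives were the block, DESeq2's size factors and Wald test, other filters on low counts, all 8 libraries, the age cohort in the model, and omission of each library in turn. The methods of the study place control and wound of a number in 1 tank, and deviations from the group means of libraries that share a number correlated at 0.196, 0.316, 0.267 and 0.323 for tanks 1 to 4. Libraries of unlike number were not correlated, and those that share a number also share age. The values are therefore a description and no test of the tank. RefSeq (GRCz12tu) served for names and gene order, and no coordinates were converted.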

Additional observations from a re-analysis of the deposited data

Results flagged for a closer look

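In 5 of 54 groups of 4 libraries examined, 1 control library lay far from the other 3 by Dixon's test. Chance alone would place about 1 group in 20 there. Control library 4 was high for ephb4a, at 35.9 CPM where the other controls were at 21.9 to 24.0 CPM, and for sema3gb, at 2.57 CPM where the others were at 1.38 to 1.50 CPM. Control library 2 was high for sema4e, at 10.2 CPM against 2.64 to 3.90 CPM, and for plxnb2a.1, at 85.6 CPM against 69.6 to 71.8 CPM. Control library 1 was high for the EFNA1 copy ENSDARG00000018787, at 184 CPM against 148 to 153 CPM.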

How the results depend on the processing

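The number of genes called higher was 0, and it was 7 in DESeq2, 1 without a filter on low counts, 3 with the replicate block of tanks, 3 with all 8 libraries and the block, and 0 to 3 when a library was left out. It was 3 without control library 2 (sema4e, ephb6 and sema3ga) and 1 without wounded library 2 (epha3). For the fits without a filter or with a library left out, the share of all genes called was not counted. Whether these numbers exceed that share is therefore not known. The number called lower was 1, and it was 2 with the block and 0 to 1 when a library was left out. The log2 fold change of ephb4a, 0.13, turned to -0.046 with all 8 libraries and -0.071 with all 8 and the block. That of the NTNG1 copy ENSDARG00000073713, -0.014, turned to 0.070 with the block, 0.015 with all 8 libraries, 0.024 with all 8 and the block and 0.088 with age as a covariate, and lay between -0.14 and 0.16 when a library was left out. The cause was not tested. The single gene lower with age became 0 with all 8 libraries and with at least 10 counts in every library, where plxnb2a.2 is not tested, and was 0 to 1 when a library was left out. The interaction called 0 genes with the block or with DESeq2's size factors. At these depths 3 counts are 0.0683 to 0.0757 CPM.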

Other observations

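The 13 genes below the minimum include dcc, the netrin receptor that attracts axons, with 1, 2, 4 and 2 counts in control libraries and 0 in all 4 wounded libraries. At 0 counts the limit for each wounded library is the level that 3 counts make, so that both groups were at or near it. The gene sema6ba had 0 counts in all 8 libraries. The counts of ephb1 were 13 in wounded library 2 and 19 in wounded library 4, and 0 to 4 in the other 6 libraries. Those of sema6bb were 29 in control library 3 and 2 to 11 in the other 7.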
